A study of Arabidopsis thaliana with 4 samples.

Results

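The UDP-dependent glycosyltransferase (UGT) genes of Arabidopsis thaliana were taken as the probe sets whose only gene symbol, in the platform annotation or in the TAIR10.1 gene table, was UGT followed by a digit. The brightest probe set was to stand for each locus, and 47 of the 13355 named loci on the array were chosen in this way. Each of the 47 had 1 such probe set, and none of these had the suffix of probes that match several sequences. Each of 4 Affymetrix ATH1 arrays measured the RNA of 1 group: polysomal RNA of dehydrated plants, non-polysomal RNA of dehydrated plants, polysomal RNA of unstressed plants and non-polysomal RNA of unstressed plants. Polysomal RNA carries more than 1 ribosome per transcript, and non-polysomal RNA is free or carries a lone ribosome. The labels name the 2 conditions as dehydration stress and non-stress, and give no ecotype, tissue, age, length of treatment or number of plants, and no agent or allele. The study compared the conditions and the fractions, so that ribosome loading could be set beside transcript level.

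UGTs transfer a sugar, most often glucose from UDP-glucose, to small molecules such as hormones, flavonoids, lignin precursors, glucosinolate precursors, sterols and foreign compounds. The sugar usually makes the acceptor more soluble and less active, or fit for storage in the vacuole. The plant family is numbered by sequence likeness, so that members with the same number and letter are close relatives, and many of them stand side by side on the chromosomes. Transfer of glucose to abscisic acid, the hormone of water deficit, is a known function in the family, as is the building of flavonols and anthocyanins.

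Signals are intensities on a linear scale that the authors had scaled to a common mean. A signal below 69.95, the median of the 4 arrays' values at percentile 25, was treated as near background and gives only a bound. Probe sets for bacterial control sequences, taken here as not added, reached at most 70.8. A locus counted as measured if its log2 signal, averaged over the 4 arrays, reached 7.74, the median of 22746 probe sets, and differences are given on the log2 scale. With 1 array per group there is no replicate check, no difference was tested, and a change is counted at 2-fold. As a scale for these differences, the SD between probe sets of the same locus (48 loci) was 0.43 to 0.61 over the comparisons. The arrays of dehydrated plants shared a hybridization date and those of unstressed plants another, so date and dehydration cannot be told apart. Of the tissue markers looked for, 1 of 5 for green tissue had a named probe set, and none of 5 for root or 3 for flower. The green tissue marker RCA, Rubisco activase, had signals of 19237.9 to 23856.4.

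Of the 47 UGT loci, 15 were measured and 32 were not, while 5978 of all 13355 named loci were measured. Of the 32, 17 lay under the lower limit on all 4 arrays, with signals of 1.2 to 67.3, and 15 exceeded it on at least 1 array. Subfamilies with a lone member here, UGT80, UGT87 and UGT88, were all measured. UGT71 had 3 measured loci of 9, UGT72 2 of 4, UGT74 2 of 3, UGT76 1 of 8, UGT78 2 of 3, UGT84 1 of 5 and UGT85 1 of 5. UGT73, which holds genes known to respond to pathogens and foreign compounds, had 7 loci and none measured, its signals running between 1.2 and 145.0. Since loci pass on the mean of the 4 arrays, UGT85A5 would have missed the filter on the non-stress arrays alone and UGT72E1 on the dehydration arrays alone. UGT71C5 would have missed it on the polysomal arrays alone, and UGT71B1 and UGT72E1 on the non-polysomal arrays alone.

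**Figure D1:**
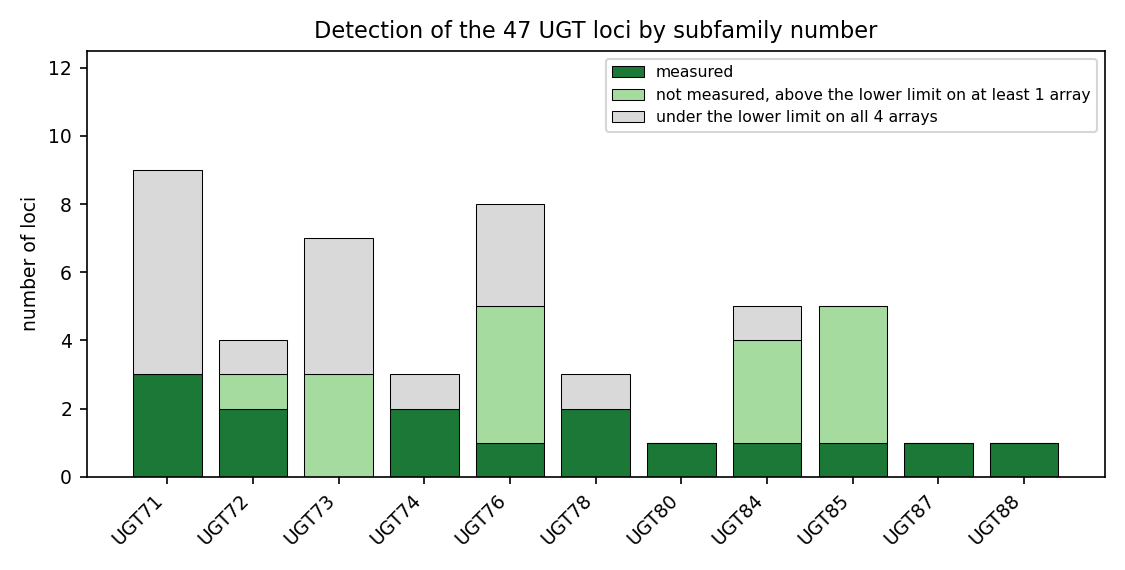
Number of UGT loci (vertical axis) by subfamily number (horizontal axis), divided into measured loci, loci not measured but above the lower limit of 69.95 on at least 1 array, and loci under it on all 4 arrays. The UGT71 bar is the tallest, with 3 measured loci of 9, while none of the 7 UGT73 loci was measured.

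The widest differences in the family lay in the response to dehydration. UGT85A5, a gene reported to raise salt tolerance when overexpressed in tobacco, was 5.90-fold higher in polysomal and 5.47-fold higher in non-polysomal RNA of dehydrated plants. UGT78D1, the flavonol 3-O-rhamnosyltransferase, was 5.30-fold lower in polysomal and 2.54-fold lower in non-polysomal RNA. The signals of the 15 measured loci are shown by array in the plot of signals, and the level of a probe set also depends on its probes, so levels of different loci are not compared.

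**Figure D2:**
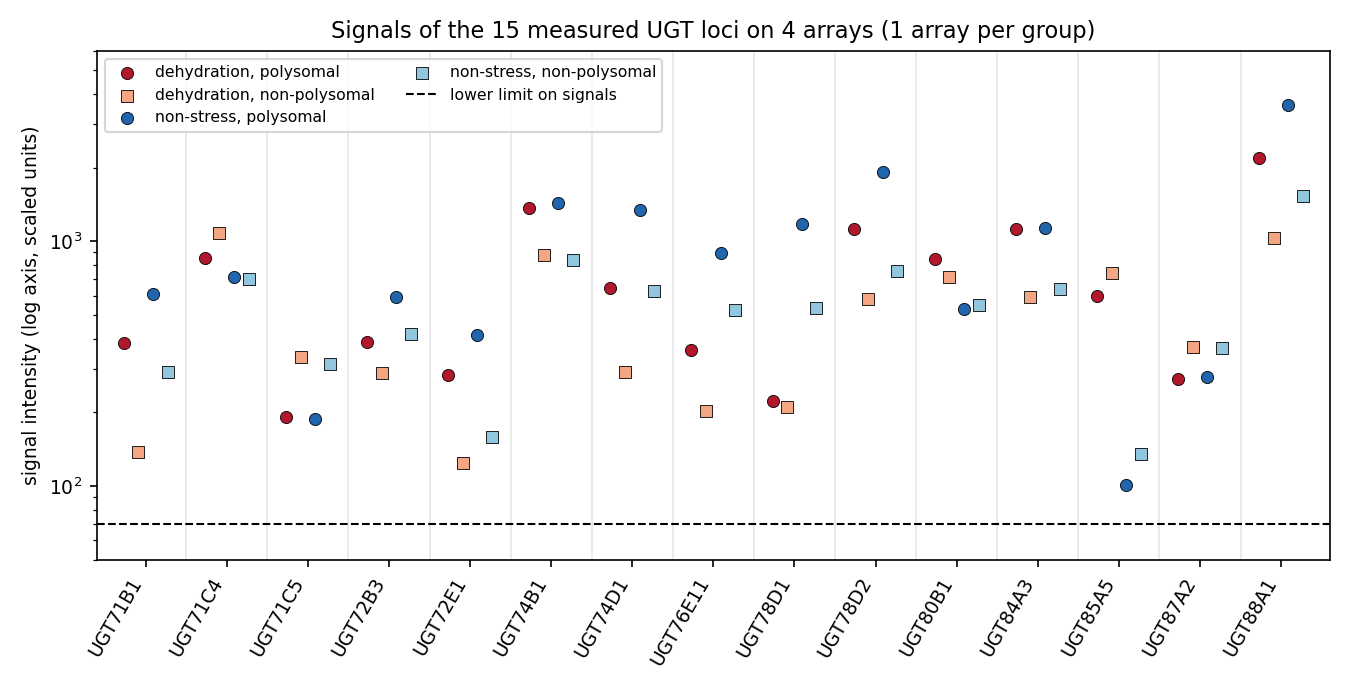
Signal intensity (log axis, scaled units) of each of the 15 measured UGT loci on the 4 arrays, 1 point per array, with the lower limit of 69.95 as a dashed line. UGT85A5 is high on both dehydration arrays (596.1 and 740.3), UGT78D1 is low on both (221.9 and 211.1), and no point falls under the limit.

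Flavonoid glycosylation was represented by UGT78D1, UGT78D2 and UGT78D3, which attach rhamnose, glucose and arabinose to the 3-position of flavonols. UGT78D1 (AT1G30530) had a signal of 221.9 in polysomal and 211.1 in non-polysomal RNA of dehydrated plants, against 1176.4 and 535.3 in unstressed plants. Both dehydration arrays lay below both non-stress arrays. The log2 difference for dehydration was -2.41 in polysomal RNA, where 42 of 11373 measured probe sets were lower, and -1.34 in non-polysomal RNA, where 222 were lower. Its polysomal to non-polysomal ratio was 0.07 under dehydration and 1.14 without stress, a change of -1.06. UGT78D2 (AT5G17050), which also acts on anthocyanidins, had 1120.4 in polysomal and 579.0 in non-polysomal RNA of dehydrated plants, against 1926.6 and 754.2 in unstressed plants. It was lower under dehydration in either fraction by less than 2-fold, with log2 differences of -0.78 and -0.38, and its ratio was 0.95 under dehydration and 1.35 without stress. The neighbouring UGT78D3 was near background on all arrays, with signals of 5.4 to 42.7.

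Only 1 of 10 flavonoid synthesis genes looked for had a named probe set, the dihydroflavonol reductase gene DFR, which acts on the anthocyanin branch. DFR had 763.6 in polysomal and 629.5 in non-polysomal RNA of dehydrated plants, against 206.9 and 254.8 in unstressed plants. It was 3.69-fold higher under dehydration in polysomal and 2.47-fold higher in non-polysomal RNA, the opposite direction to that of UGT78D1. UGT78D2 was lower too, at -0.78 in polysomal RNA. Its -0.38 in non-polysomal RNA was smaller than the spread between probe sets of a locus, 0.47.

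Among the hormone UGTs, UGT74D1 (AT2G31750), which glucosylates auxins, was lower under dehydration in either fraction. Its signals were 646.6 in polysomal and 291.9 in non-polysomal RNA of dehydrated plants, against 1339.0 and 627.8 in unstressed plants. The log2 differences were -1.05 and -1.10, while its polysomal to non-polysomal ratio was 1.15 under dehydration and 1.09 without stress. So the signal was about equally lower in either fraction, and the ratio differed between conditions by 0.05. UGT71C5 (AT1G07240), which forms abscisic acid glucose ester, had 192.1 in polysomal and 337.6 in non-polysomal RNA of dehydrated plants, against 187.3 and 316.3 in unstressed plants. Its log2 differences for dehydration were 0.04 and 0.09, smaller than the spread between probe sets of a locus. It had the lowest polysomal ratio of the measured UGTs in either condition, -0.81 under dehydration and -0.76 without stress, but passed the filter only through the non-polysomal arrays. The other abscisic acid UGTs on the array, UGT71B6 and UGT71B8, were near background on all arrays, with highest signals of 8.6 and 25.5.

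Of the 11 genes for abscisic acid synthesis and turnover that were looked for, 1 had a named probe set, BGLU33, a beta-glucosidase that releases the hormone from its glucose ester. It had 991.0 in polysomal and 216.7 in non-polysomal RNA of dehydrated plants, against 1006.3 and 188.2 in unstressed plants. BGLU33 was thus level between conditions, at -0.02 in polysomal and 0.20 in non-polysomal RNA, with ratios of 2.19 under dehydration and 2.42 without stress. It passed the filter only through the polysomal arrays, where it was high. The auxin gene UGT84B1 was not measured, nor were the cytokinin N-glucosyltransferases UGT76C1 and UGT76C2, which stand side by side. Members that were not measured are named here and below with their values in view. UGT76C1 had 193.5 in polysomal and 129.4 in non-polysomal RNA of dehydrated plants, against 152.6 and 117.7 in unstressed plants. UGT76C2 had 26.2 in polysomal, under the limit, and 110.7 in non-polysomal RNA of dehydrated plants, against 185.9 and 205.8 in unstressed plants. UGT76C2 was therefore at least 2.66-fold lower under dehydration in polysomal RNA, and UGT76C1 differed by 0.34 on the log2 scale the other way. Of the 4 genes listed for salicylic acid and related compounds, none was measured, and UGT74F1, UGT76B1 and UGT71C3 were near background, at 44.7 or less. UGT76D1, which acts on dihydroxybenzoic acids, had 38.9 in polysomal, under the limit, and 85.2 in non-polysomal RNA of dehydrated plants, against 110.8 and 97.3 in unstressed plants.

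Phenylpropanoid UGTs glucosylate lignin precursors and their acids. UGT72E1 (AT3G50740), which acts on coniferyl and sinapyl aldehyde, had 284.2 in polysomal and 123.8 in non-polysomal RNA of dehydrated plants, against 414.8 and 158.7 in unstressed plants. Both polysomal arrays were above both non-polysomal arrays, with ratios of 1.20 under dehydration and 1.39 without stress, but the locus passed the filter only through the polysomal arrays. The dehydration difference of UGT72E1 was -0.55 in polysomal and -0.36 in non-polysomal RNA. UGT84A3 (AT4G15490), which forms glucose esters of hydroxycinnamic acids, had 1125.2 in polysomal and 591.0 in non-polysomal RNA of dehydrated plants, against 1129.0 and 636.6 in unstressed plants. It was level between conditions, within 0.11 on the log2 scale, and its ratio was 0.93 under dehydration and 0.83 without stress. UGT72B3 (AT1G01420) had 386.1 in polysomal and 288.9 in non-polysomal RNA of dehydrated plants, against 589.5 and 417.2 in unstressed plants. UGT72B3 differed by -0.61 and -0.53 for dehydration, with ratios of 0.42 and 0.50. UGT72E2, a monolignol glucosyltransferase, was not measured at 147.3 to 201.6, and UGT84A4, a neighbour of UGT84A3, not at 112.4 to 199.1. UGT84A1 exceeded the limit only in polysomal RNA of unstressed plants, at 90.2.

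UGT74B1 (AT1G24100), the S-glucosyltransferase of glucosinolate synthesis, had 1361.3 in polysomal and 876.1 in non-polysomal RNA of dehydrated plants, against 1427.1 and 841.6 in unstressed plants. It was level between conditions at -0.07 and 0.06, with ratios of 0.64 under dehydration and 0.76 without stress. UGT80B1 (AT1G43620), a sterol glucosyltransferase known from the seed coat, had 844.5 in polysomal and 712.3 in non-polysomal RNA of dehydrated plants, against 529.2 and 549.7 in unstressed plants. Both dehydration arrays were higher, by 0.67 and 0.37 on the log2 scale, which is under 2-fold. The 0.37 in non-polysomal RNA was smaller than the spread between probe sets of a locus, 0.47. The ratio of UGT80B1 was 0.25 under dehydration and -0.05 without stress.

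In the UGT85 subfamily, UGT85A5 (AT1G22370) had 596.1 in polysomal and 740.3 in non-polysomal RNA of dehydrated plants, against 101.1 and 135.4 in unstressed plants. Both dehydration arrays lay above both non-stress arrays. The log2 difference was 2.56 in polysomal RNA, where 75 of 11373 measured probe sets were higher, and 2.45 in non-polysomal RNA, where 36 were higher. UGT85A5 passed the filter for measured loci only through the dehydration arrays, where it was high. With the lower limit at percentile 40, 136.5, the polysomal difference became a lower bound of 2.13. Its ratio was -0.31 under dehydration and -0.42 without stress, so that ratio differed by 0.11 between conditions. This change was -0.37 under quantile normalization and -0.26 under scaling on hybridization controls. UGT85A7, UGT85A2 and UGT85A3, which stand beside UGT85A5 on chromosome 1, were not measured. UGT85A2 had 158.7 in polysomal and 112.3 in non-polysomal RNA of dehydrated plants, against 218.4 and 96.1 in unstressed plants. UGT85A3 differed by -0.17 and 0.05 for dehydration and UGT85A7 by 0.19 and -0.19, so neither neighbour showed a 2-fold difference between conditions.

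UGT76E11 (AT3G46670), reported to glucosylate flavonoids, was lower under dehydration in either fraction. It had 358.7 in polysomal and 201.9 in non-polysomal RNA of dehydrated plants, against 896.6 and 524.7 in unstressed plants. Both dehydration arrays lay below both non-stress arrays, with log2 differences of -1.32 and -1.38 and ratios of 0.83 under dehydration and 0.77 without stress. Its neighbour UGT76E12 was near background on all arrays, at 6.1 or less. UGT71B1 (AT3G21750) had 382.7 in polysomal and 138.1 in non-polysomal RNA of dehydrated plants, against 609.6 and 293.6 in unstressed plants. Its dehydration difference was -1.09 in non-polysomal RNA and -0.67 in polysomal RNA. It had the highest ratio of the measured UGTs under dehydration, 1.47, against 1.05 without stress, but passed the filter only through the polysomal arrays. UGT71C4 (AT1G07250), which stands between UGT71C3 and UGT71C5, had 854.1 in polysomal and 1083.3 in non-polysomal RNA of dehydrated plants, against 717.1 and 702.9 in unstressed plants. UGT71C4 was higher in dehydrated plants by 0.25 and 0.62, while UGT71C3 was near background at 44.7 or less.

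UGT88A1 (AT3G16520) had 2181.5 in polysomal and 1026.0 in non-polysomal RNA of dehydrated plants, against 3618.3 and 1527.3 in unstressed plants. It was lower under dehydration by 0.73 and 0.57 on the log2 scale, and its ratio was 1.09 under dehydration and 1.24 without stress. UGT87A2 (AT2G30140), which is known to affect flowering time, had 274.1 in polysomal and 369.7 in non-polysomal RNA of dehydrated plants, against 279.7 and 367.1 in unstressed plants. UGT87A2 differed between conditions by no more than 0.03, and its ratio was -0.43 under dehydration and -0.39 without stress. In the UGT73 subfamily, UGT73B5, known from the response to pathogens, had 145.0 in polysomal RNA of dehydrated plants and lay under the limit on the other arrays, at 15.2 to 56.4. It was thus at least 2.07-fold higher under dehydration in polysomal RNA. UGT73C1, which acts on foreign compounds, exceeded the limit on that array alone as well, at 86.9. UGT73B1 lay the other way, under the limit in dehydrated plants at 40.8 in polysomal and 56.3 in non-polysomal RNA, against 94.9 and 108.8 in unstressed plants. The other 4 UGT73 loci were under the limit on all arrays.

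The polysomal and non-polysomal fractions of dehydrated plants were compared first. UGT71B1, UGT72E1, UGT74D1 and UGT88A1 were at least 2-fold higher in polysomal RNA, 4 of the 15 measured loci, and none was at least 2-fold lower. Of these, UGT71B1 and UGT72E1 passed the filter only through the polysomal arrays, where they were high. Of all measured probe sets, 9.07% were higher by 2-fold or more and 11.6% were lower by as much. The UGT loci had a median of 0.64, against a median of -0.04 over all measured probe sets. Of the UGT loci 11 were above 0 and 4 below, beside 47.9% of all measured probe sets above 0. Arrays scaled to an equal mean give a ratio relative to the average transcript, which is not the share of a transcript on polysomes. Under equal median scaling 7 UGT loci were at least 2-fold higher beside 15.6% of all measured probe sets, and under scaling on hybridization controls 6 beside 11.6%.

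Without stress, 6 of the 15 measured UGT loci were at least 2-fold higher in polysomal RNA and none at least 2-fold lower. They were the same 4 loci together with UGT78D1 and UGT78D2, and the ratios of the 6 ran from 1.05 to 1.39. Again UGT71B1 and UGT72E1 were counted though they passed the filter only through the polysomal arrays. Of all measured probe sets, 8.56% were higher by 2-fold or more and 11.9% were lower by as much. The UGT median was 0.77, against -0.06 over all measured probe sets. Of the UGT loci 11 were above 0 and 4 below, beside 46.8% of all measured probe sets above 0. Under equal median scaling, which shifted the median of all measured probe sets by 0.37, 9 UGT loci were at least 2-fold higher beside 18.4% of all. Under scaling on hybridization controls, which shifted it by 0.48, the count was 9 beside 21.9%, and relative to the shifted medians the UGT median was 0.83 and 0.84. The ratios in the 2 conditions rest on different arrays. All 4 loci named for dehydration were at least 2-fold higher in both conditions, as were 5.01% of all measured probe sets. That count too holds UGT71B1 and UGT72E1. Ratios were above 0 in both conditions for 10 UGT loci, against 37.9% of all measured probe sets. They were below 0 in both for UGT71C5, UGT85A5 and UGT87A2, for which no share of all probe sets was counted. Under scaling on hybridization controls the non-stress ratio turned to 0.06 for UGT85A5 and 0.08 for UGT87A2. Under quantile normalization it was 0.11 for UGT85A5, and only UGT71C5 stayed below 0 under each scaling. UGT71C5 passed the filter only through the non-polysomal arrays, where it was high.

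**Figure D3:**
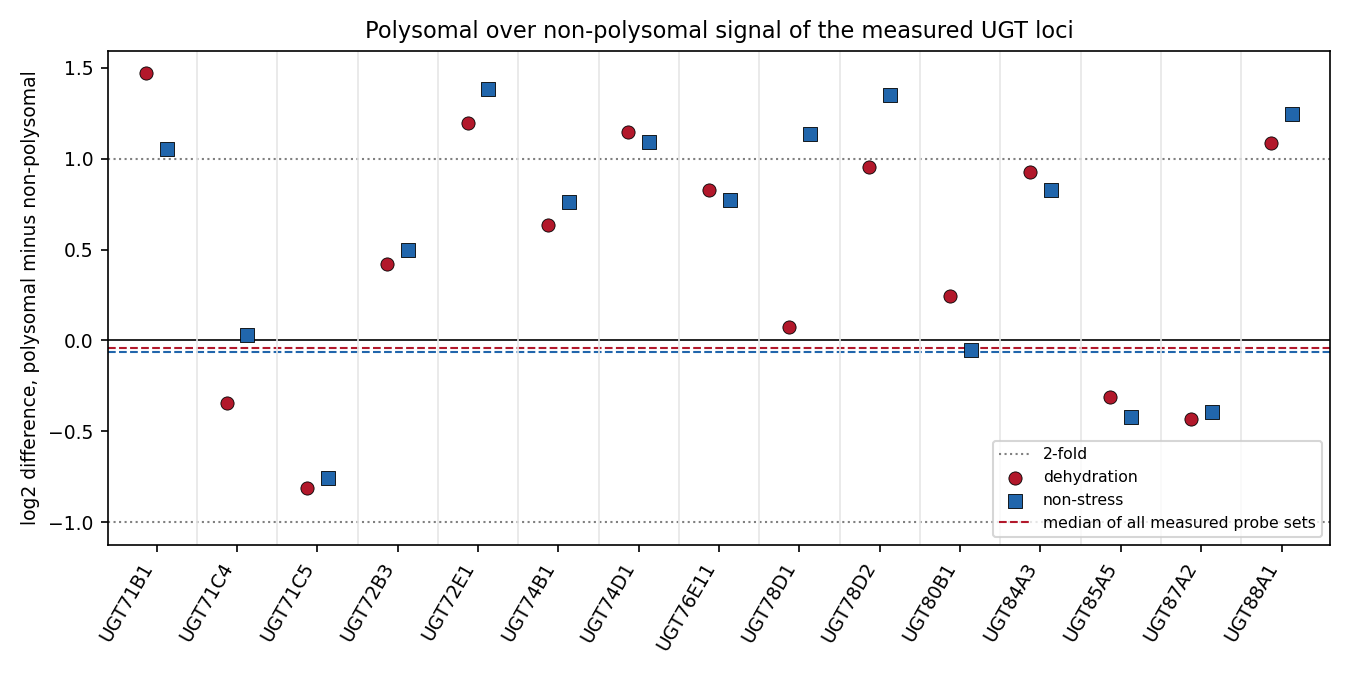
Log2 difference between polysomal and non-polysomal signal (vertical axis) for each of the 15 measured UGT loci, with a circle for dehydration and a square for non-stress, 1 array pair each. Dotted lines mark 2-fold and dashed lines the median of all measured probe sets (-0.04 under dehydration and -0.06 without stress). UGT78D1 shows the widest gap between conditions, 0.07 under dehydration and 1.14 without stress.

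Dehydrated and unstressed plants were compared in polysomal RNA. UGT85A5 was at least 2-fold higher, the only such locus of 15, while UGT74D1, UGT76E11 and UGT78D1 were at least 2-fold lower. UGT85A5 passed the filter only through the dehydration arrays, where it was high. Of all measured probe sets, 6.36% were higher by 2-fold or more and 5.58% were lower by as much. The UGT median was -0.55, against -0.0040 over all measured probe sets. Of the UGT loci 11 were below 0 and 4 above, beside 49.6% of all measured probe sets above 0. UGT74D1 lay at the border, and under equal median scaling its difference was -0.99, which left 2 loci at least 2-fold lower beside 4.74% of all measured probe sets. In bulk RNA such as this, fewer cells of a type and less RNA per cell cannot be told apart.

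In non-polysomal RNA, UGT85A5 was again the only locus at least 2-fold higher under dehydration, and UGT71B1, UGT74D1, UGT76E11 and UGT78D1 were at least 2-fold lower. Here too, UGT85A5 was counted though it passed the filter only through the dehydration arrays. Of all measured probe sets, 4.32% were higher by 2-fold or more and 4.56% were lower by as much. The UGT median was -0.36, against -0.02 over all measured probe sets. Of the UGT loci 9 were below 0 and 6 above, beside 48.5% of all measured probe sets above 0. Under equal median scaling or scaling on hybridization controls, which shifted the median of all measured probe sets by 0.17 and 0.31, UGT71B1 and UGT74D1 were less than 2-fold lower. That left 1 locus at least 2-fold higher, beside 6.78% or 9.62% of all measured probe sets. It left 2 at least 2-fold lower, UGT76E11 and UGT78D1, beside 3.06% or 2.15% of all measured probe sets.

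The dehydration differences in the fractions share no array but share the hybridization dates. Of the 15 measured loci 9 were below 0 in both, beside 36.9% of all measured probe sets. Another 4 were above 0 in both, for which no share of all probe sets was counted. UGT74D1, UGT76E11 and UGT78D1 were at least 2-fold lower in both fractions, which held for 2.77% of all measured probe sets. UGT85A5, which passed the filter only through the dehydration arrays, was at least 2-fold higher in both, which held for 2.99%. Across the 15 loci the correlation between fractions was 0.95, and 0.89 over the 14 other than UGT85A5, against 0.73 over all measured probe sets. Genes are not independent replicates, and the points share their arrays.

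**Figure D4:**
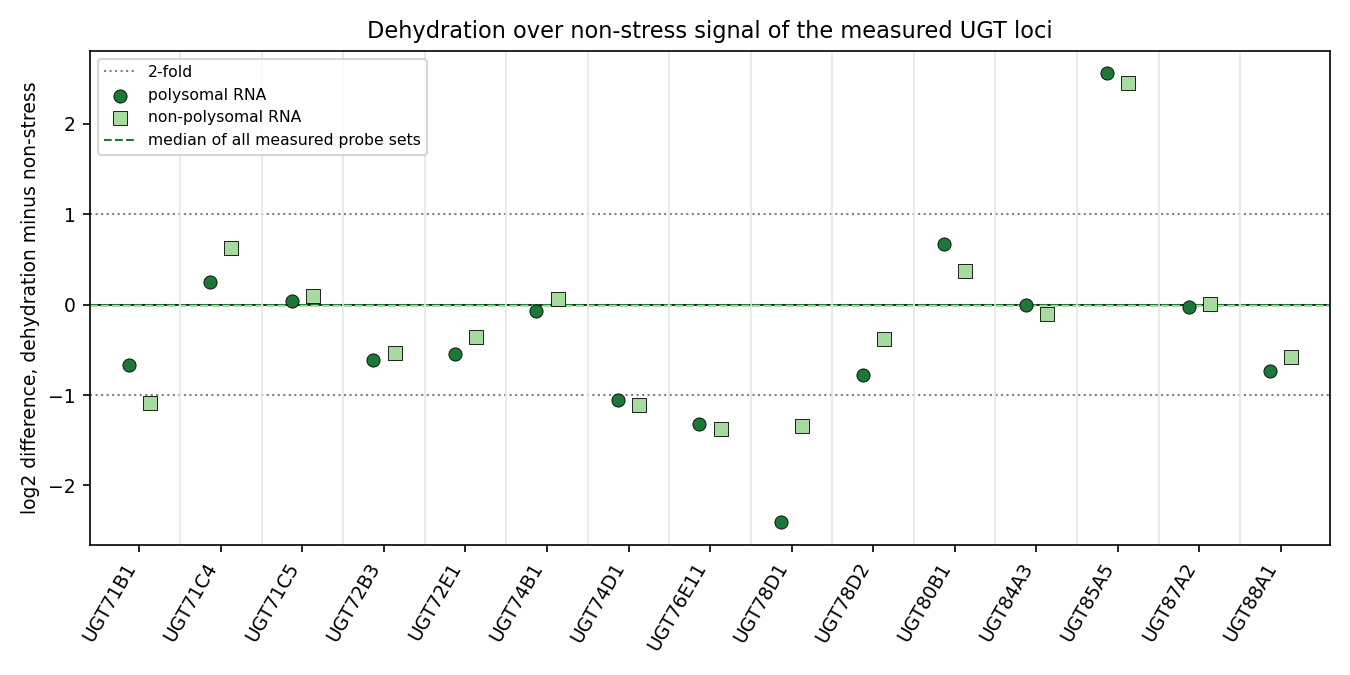
Log2 difference between dehydration and non-stress signal (vertical axis) for each of the 15 measured UGT loci, with a circle for polysomal and a square for non-polysomal RNA, 1 array pair each. Dotted lines mark 2-fold and dashed lines the median of all measured probe sets. UGT85A5 stands at 2.56 and 2.45, and UGT78D1 at -2.41 and -1.34.

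The change of the polysomal ratio between conditions was under 2-fold for 14 of the 15 measured UGT loci. The other was UGT78D1 at -1.06, with 145 of 11373 measured probe sets lower still, and it was -0.93 under quantile normalization. No UGT locus was at least 2-fold higher, the highest being UGT71B1 at 0.42. Of all measured probe sets, 2.8% were higher by 2-fold or more and 1.62% were lower by as much. The UGT median was -0.06 against 0.01 over all measured probe sets. Under scaling on hybridization controls, which shifted the median of all measured probe sets by -0.37, the UGT median was -0.07 relative to it. The change is made from the same arrays as the other comparisons and is not independent of them.

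Position along the chromosomes was not used to choose the loci. In the gene order of the gene table, 33 of the 47 loci had another UGT gene within 2 intervening protein-coding genes, and 31 of them fell into 13 groups of 2 or more members. Of these 13 groups 6 held a measured locus, and only the group of UGT71C3, UGT71C4 and UGT71C5 held more than 1. The other 5 were those of UGT71B1, UGT76E11, UGT78D2, UGT84A3 and UGT85A5, each measured beside neighbours that were not. Within the UGT71C group the measured neighbours differed in ratio, UGT71C4 at -0.34 under dehydration and 0.03 without stress and UGT71C5 at -0.81 and -0.76.

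Other genes around glycosylation were looked up by lists. Of 9 genes for UDP-glucose supply 1 had a named probe set, USP, a UDP-sugar pyrophosphorylase gene. USP had 816.8 in polysomal and 754.0 in non-polysomal RNA of dehydrated plants, against 1011.3 and 879.3 in unstressed plants, differences of -0.31 and -0.22. Glutathione S-transferases of the tau and phi classes, which conjugate glutathione to foreign compounds, had 4 measured loci of 12. None of the 4 differed 2-fold between conditions, with medians of -0.56 in polysomal and -0.27 in non-polysomal RNA, and their polysomal ratios differed in direction. GSTU20 had ratios of 1.84 under dehydration and 1.99 without stress, and GSTU18 had -1.04 and -0.75. Beta-glucosidases of the BGLU family, some of which remove such sugars, had 6 measured loci of 20, and none differed 2-fold between conditions. Their dehydration medians were -0.04 in polysomal and -0.08 in non-polysomal RNA. BGLU25 and BGLU33 were at least 2-fold higher in polysomal RNA in both conditions, beside 5.01% of all measured probe sets. Both passed the filter only through the polysomal arrays, where they were high. The 4 GH3 genes, which couple amino acids to auxin and jasmonate, were not measured.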

How the data were processed

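The authors' deposited table holds 1 signal intensity per probe set and array on a linear scale, for 22810 probe sets, and how probes were summarized is not stated in the labels or files. Without the top and bottom 2% of values the mean was 499 to 500 on each array, so the deposited intensities had been scaled to a common mean, and they were used as given. The chip type and hybridization dates are as given per the file headers.

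Signals were raised to the lower limit and log2 was taken, and 64 control probe sets were left out. A locus was measured at or above percentile 50 of the mean log2 signal, which kept 11373 probe sets. Names came from the platform annotation, which can be old, with 13513 probe sets naming 1 gene and 503 several, which were not named. Of the 13513, 13436 matched TAIR10.1. Because 8730 probe sets had no name here, the lists are partial. No sequences were used.

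Named by rule were measured UGT loci at least 2-fold different in a comparison whose brighter signal reached 4 times the limit, and the 10 brightest UGT loci. Other measured loci and all loci that were not measured were named with their values in view. The members and lists were chosen with earlier results of these data known. Calculations used Python 3.11.15 with pandas 2.3.3 and were tested on simulated data. The 9 alternatives concern scaling, lower limit, filter and choice of probe set. The number of arrays limits the precision.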

Additional observations from a re-analysis of the deposited data

Results flagged for a closer look

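A few measured UGT loci had differences of opposite sign in the 2 conditions or the 2 fractions, each resting on 1 array per group, and the difference between them was not tested. The polysomal to non-polysomal log2 ratio of UGT71C4 was -0.34 under dehydration and 0.03 without stress, and that of UGT80B1 was 0.25 under dehydration and -0.05 without stress. The dehydration difference of UGT74B1 was -0.07 in polysomal and 0.06 in non-polysomal RNA, and that of UGT87A2 was -0.03 in polysomal and 0.01 in non-polysomal RNA. All of these changes were smaller than the spread between probe sets of a locus in the change of ratio, 0.59. Outside the 47 loci, a probe set annotated to 2 genes, 1 of them a UGT, had signals of at least 221.9 on all arrays. That is above the highest signal of the bacterial control sequences taken as not added (70.8). It had 363.3 in polysomal and 329.8 in non-polysomal RNA of dehydrated plants, against 480.9 and 221.9 in unstressed plants, and which of its genes gave the signal was not tested.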

How the results depend on the processing

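Differences of the 15 measured UGT loci were recomputed under 9 alternatives. Of 630 values none turned sign among those at least 2-fold, while some smaller ones did, such as the non-stress ratios of UGT85A5 and UGT87A2. In all, 629 moved by less than the spread between probe sets of a locus. The exception was UGT85A5 in polysomal RNA, 2.13 with the lower limit at percentile 40. In 18 values a locus crossed 2-fold. Under equal median scaling, 7 UGT loci were at least 2-fold higher in polysomal RNA under dehydration and 2 at least 2-fold lower under dehydration in non-polysomal RNA, a count that was also 2 under hybridization control scaling. Under quantile normalization 14 loci were measured, and none had a change of ratio of at least 2-fold. With no filter all 47 loci entered and the medians of all 5 comparisons were 0.00. The lower limit in part fixes this, since the 17 loci under it on all 4 arrays have differences of 0 by construction. Then 1 locus was at least 2-fold lower in polysomal RNA without stress (11.6% of all probe sets), 2 were higher under dehydration in polysomal RNA (4.24%) and 1 had a higher change of ratio (3.79%). With the filter at percentile 75, 7 loci remained, by construction fewer. Of these, 2 were at least 2-fold higher in polysomal RNA under dehydration (11.0% of all probe sets kept) and 3 without stress (11.8%). Under dehydration 0 were higher (6.63% in polysomal and 5.15% in non-polysomal RNA) and 1 was lower (5.93% and 4.40%) in either fraction, the median in polysomal RNA being -0.07, and the change of ratio gave 0 lower. Averaging probe sets or leaving out suffixed ones changed nothing, since each locus has 1 probe set without a suffix. No paired analysis was possible because each group has 1 array.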

Other observations

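Some genes carry a UGT name only as a synonym in the gene table and so were not among the 47 loci. GT72B1 (UGT72B1), which acts on monolignols and foreign compounds, had 1719.7 in polysomal and 624.1 in non-polysomal RNA of dehydrated plants, against 1912.5 and 628.1 in unstressed plants. Its polysomal ratio was 1.46 under dehydration and 1.61 without stress, both above those of its measured relative UGT72B3 (0.42 and 0.50), and it was level between conditions. The sterol glucosyltransferase gene SGT (UGT80A2) had 1318.9 in polysomal and 1130.8 in non-polysomal RNA of dehydrated plants, against 731.2 and 972.4 in unstressed plants. Its dehydration differences of 0.85 and 0.22 had the same sign as those of the other sterol glucosyltransferase, UGT80B1 (0.67 and 0.37). In non-polysomal RNA both differences were smaller than the spread between probe sets of a locus, 0.47.

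UF3GT (UGT79B1), which adds a sugar to anthocyanins, was not measured by a narrow margin, its mean log2 signal being 7.73. It had 430.7 in polysomal and 200.5 in non-polysomal RNA of dehydrated plants, against 182.3 and 130.5 in unstressed plants. Its dehydration differences were 1.24 and 0.62, in the direction of the anthocyanin gene DFR and opposite to that of the flavonol gene UGT78D1 (-2.41 and -1.34). UGT78D2, which also acts on anthocyanidins, was lower, at -0.78 and -0.38, so genes acting on anthocyanins did not share 1 direction. AT5G54010 (UGT79B6) was near background on all arrays, at 20.1 or less.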
